A study of Schizosaccharomyces pombe with 12 samples.

Results

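The 10 genes described here encode regulators of entry into and exit from mitosis in fission yeast (Schizosaccharomyces pombe): cdc13, cdc25, wee1, mik1, plo1, fkh2, slp1, ark1, cut1 and cut2. They were chosen by gene symbol in the platform annotation, and each of the 10 matched exactly 1 probe set, out of 2917 probe sets with exactly 1 S. pombe gene (2899 genes). Transcript levels were measured on 12 Affymetrix Yeast Genome 2.0 arrays, 1 for each combination of 3 strains and 4 conditions. All strains are h- and carry leu1-32 and ura4-D18. The wild type (WT) has no further change, and in slm9D and hip1D the gene slm9 or hip1 was replaced by ura4, so that both mutants also carry a marker that WT lacks. Slm9 and Hip1 are subunits of HIRA, a histone chaperone. Cells in log phase in YES medium at 32 °C were left unstressed, moved to 40 °C for 1 h, given 25 mM hydrogen peroxide (H2O2) for 1 h, or given the 40 °C hour and then the H2O2 hour. The labels call the heat a priming stress and the peroxide a severe stress, and the series title asks what HIRA does in the response to a low dose of stress.

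Fission yeast enters mitosis when the kinase Cdc2, bound to the B-type cyclin Cdc13, is switched on. The kinases Wee1 and Mik1 hold Cdc2 off by phosphorylating a tyrosine, and the phosphatase Cdc25 removes that phosphate. The polo kinase Plo1 helps to drive entry and later septation, and the forkhead protein Fkh2 belongs to the complex that transcribes a wave of M-phase genes. Exit begins when Slp1, the fission yeast Cdc20, activates the anaphase-promoting complex (APC/C), which marks Cdc13 and the securin Cut2 for destruction. Loss of Cut2 frees the separase Cut1 to cut the cohesin that holds sister chromatids together, while the Aurora kinase Ark1 watches over the attachment of chromosomes to the spindle. Much of this control acts on the proteins, which these arrays did not measure.

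Values are log2 of the deposited intensity, so a difference of 1 is a 2-fold change. Differences came from limma fitted on all 2917 probe sets, with Benjamini-Hochberg adjustment over all of them, and a gene was called higher or lower at an adjusted p under 0.05. Each strain has a single array in each condition. Nothing in the labels ties the arrays to separate cultures, and the p-values therefore cover the spread among these 12 arrays alone. In the stress tests and the strain tests over all conditions, that spread includes any unequal response of the strains. A stress response that differed between strains could thus go uncalled there. In the other tests it is the spread between slm9D and hip1D arrays. Either spread may otherwise be technical. The slm9 probe set read 5.14 ± 0.22 in slm9D against 9.59 ± 0.31 in WT, and ura4 read 4.69 ± 0.41 in WT against 11.46 ± 0.25 in slm9D and 11.63 ± 0.20 in hip1D (SD, n = 4 arrays), as the labels give them. hip1 read 8.39 ± 0.07 in hip1D and 9.51 ± 0.22 in WT, a smaller fall that checks that label only weakly. The WT array after H2O2 alone stands apart, with a median S. pombe probe set of 9.36 against 9.46 to 9.57 on the other 11. All 10 genes read above the background of their array, the 95th percentile of probe sets for genes outside S. pombe, on every array, but mik1 only just did in WT after H2O2 (4.034 against 4.029). RNA from a whole culture does not tell fewer cells in a cell cycle phase from less transcript per cell.

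Transcripts of the phosphatase that switches Cdc2 on and of the kinases that hold it off both fell under H2O2. cdc25, the activating phosphatase gene, read 9.03 for WT, 8.50 for slm9D and 8.61 for hip1D without stress. At 40 °C it read 8.11, 8.28 and 8.26 in the same order, after H2O2 7.87, 7.70 and 7.75, and under both 7.48, 7.53 and 7.46. The level thus stepped down from unstressed cells to 40 °C to H2O2 to both stresses in every strain. Relative to unstressed cells it fell by 0.50 at 40 °C (-0.50 ± 0.13, SE, adjusted p = 0.0134), by 0.94 after H2O2 (-0.94 ± 0.13, adjusted p = 0.000625) and by 1.22 after both (-1.22 ± 0.13, adjusted p = 6.86e-05). The step from 40 °C to H2O2 also passed the test (-0.44 ± 0.13, adjusted p = 0.0182), whereas the step from H2O2 to both did not (-0.28 ± 0.13, adjusted p = 0.124).

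wee1, the gene of the main inhibitory kinase, fell after H2O2 and was not called at 40 °C. It read 7.61 for WT, 6.99 for slm9D and 6.93 for hip1D without stress and 6.88, 6.97 and 6.88 at 40 °C. Single differences were -0.73 for WT, -0.02 for slm9D and -0.05 for hip1D, and the mean difference of the 3 strains was not called (-0.27 ± 0.16, adjusted p = 0.208). After H2O2 wee1 read 6.05, 5.96 and 6.16, a fall of 1.12 (-1.12 ± 0.16, adjusted p = 0.000708). After both stresses it read 6.31, 6.06 and 6.01, lower than at 40 °C (-0.79 ± 0.16, adjusted p = 0.00417) and not distinguishable from H2O2 alone (0.07 ± 0.16, adjusted p = 0.758).

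mik1, the second inhibitory kinase gene, came nearest to the array background and had a range of 2.72 over the arrays. Without stress it read 6.76 for WT, 6.05 for slm9D and 5.70 for hip1D. At 40 °C it read 5.02, 5.49 and 5.50, after H2O2 4.03, 4.52 and 4.53, and under both 4.54, 5.07 and 4.84. WT was the highest strain without stress and the lowest in each of the 3 stresses. Averaged over strains mik1 fell by 0.83 at 40 °C (-0.83 ± 0.29, adjusted p = 0.0381), by 1.81 after H2O2 (-1.81 ± 0.29, adjusted p = 0.00108) and by 1.35 after both (-1.35 ± 0.29, adjusted p = 0.00302). The heat call was lost when the arrays were shifted so that probe sets for genes of other organisms had equal medians (-0.76, adjusted p = 0.0513), without the strain term (-0.83, adjusted p = 0.0602), and when slm9D (-0.97, adjusted p = 0.143) or hip1D (-1.15, adjusted p = 0.065) was left out.

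The cyclin gene cdc13 was the steadiest of the 10 by range, 0.77 over the 12 arrays. It read 10.24, 10.24 and 10.13 in WT, slm9D and hip1D without stress, 10.12, 10.55 and 10.44 at 40 °C, 9.78, 9.89 and 9.96 after H2O2, with 9.92, 10.13 and 10.18 under both. The mutants rose a little at 40 °C while WT did not, and every strain was lower after H2O2. cdc13 fell after H2O2 (-0.33 ± 0.10, adjusted p = 0.0221) and was not called at 40 °C (0.17 ± 0.10, adjusted p = 0.187) or after both (-0.12 ± 0.10, adjusted p = 0.299). The H2O2 call was lost after quantile normalization repeated on the S. pombe probe sets alone (-0.26, adjusted p = 0.0511), without the strain term (-0.33, adjusted p = 0.0801), and when slm9D (-0.31, adjusted p = 0.196) or hip1D (-0.41, adjusted p = 0.0916) was left out.

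**Figure D1:**
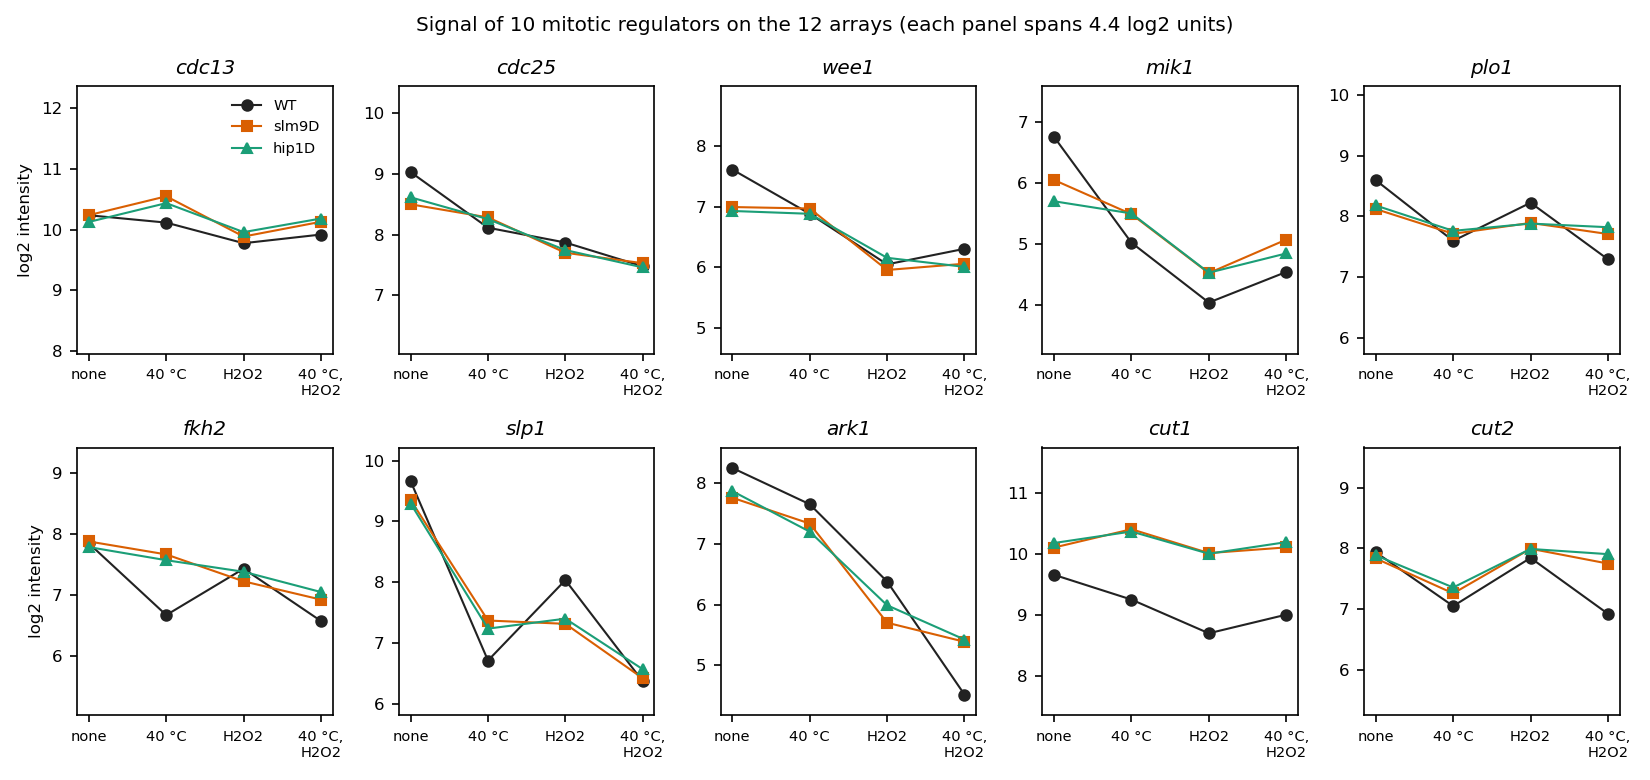
Log2 intensity (y axis) of each of the 10 genes in the 4 conditions (x axis), 1 point per array, with lines joining the arrays of a strain. slp1 and ark1 span 3.29 and 3.73 log2 units, cdc13 spans 0.77, and cut1 in WT lies under both mutants in every condition.

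Of the 10 genes, slp1 fell most at 40 °C and after both stresses, though not after H2O2 alone. It read 9.66 for WT, 9.35 for slm9D and 9.29 for hip1D without stress, 6.71, 7.37 and 7.24 at 40 °C, 8.03, 7.31 and 7.40 after H2O2, with 6.37, 6.42 and 6.57 under both. No stressed array reached an unstressed one. The fall was 2.33 at 40 °C (-2.33 ± 0.23, adjusted p = 6.38e-05), 1.85 after H2O2 (-1.85 ± 0.23, adjusted p = 0.000311) and 2.98 after both (-2.98 ± 0.23, adjusted p = 1.17e-05). The falls did not add up: with the pair of stresses slp1 was above the sum of the single falls (1.20 ± 0.33, adjusted p = 0.0398), by 1.28 for WT, 1.09 for slm9D and 1.23 for hip1D. It was the only one of the 10 called in this test of heat by H2O2, where 8.95% of all probe sets were called higher. For mik1 the value was larger but not called (1.29 ± 0.41, adjusted p = 0.0639). After quantile normalization on the S. pombe probe sets alone, mik1 was called as well (1.35, adjusted p = 0.013). The slp1 call was lost without the strain term (1.20, adjusted p = 0.0888) and when slm9D (1.26, adjusted p = 0.313) or hip1D (1.19, adjusted p = 0.28) was left out. No array was taken an hour after the heat without H2O2, so the test also holds any change within that hour.

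plo1, the polo kinase gene, read 8.59 for WT, 8.12 for slm9D and 8.18 for hip1D without stress, 7.60, 7.71 and 7.76 at 40 °C, 8.22, 7.89 and 7.88 after H2O2, with 7.29, 7.71 and 7.82 under both. WT covered the whole range of the gene, from its highest reading without stress to its lowest after both stresses, and the mutants moved less. plo1 fell at 40 °C (-0.61 ± 0.18, adjusted p = 0.0218) and after both (-0.69 ± 0.18, adjusted p = 0.00985) but was not called after H2O2 alone (-0.30 ± 0.18, adjusted p = 0.215). The 4 conditions, from unstressed through H2O2 and 40 °C to both, did not differ between neighbours in that order.

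fkh2, which encodes the forkhead regulator, read 7.85 for WT, 7.88 for slm9D and 7.78 for hip1D without stress, where the range over strains was 0.09. At 40 °C it read 6.67, 7.66 and 7.57, after H2O2 7.43, 7.22 and 7.38, and under both 6.57, 6.92 and 7.05. Single differences in heat were -1.18 for WT, -0.21 for slm9D and -0.22 for hip1D. The mean fall was called after both stresses (-0.99 ± 0.21, adjusted p = 0.00306) and not at 40 °C (-0.54 ± 0.21, adjusted p = 0.062) or after H2O2 (-0.49 ± 0.21, adjusted p = 0.086). Without the WT array after H2O2 alone, fkh2 was called in the last 2 comparisons as well (-0.54, adjusted p = 0.032, and -0.69, adjusted p = 0.0263).

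ark1, the Aurora kinase gene, had the widest range of the 10, 3.73 log2 units. It read 8.25 for WT, 7.76 for slm9D and 7.87 for hip1D without stress, 7.65, 7.33 and 7.20 at 40 °C, 6.38, 5.70 and 5.99 after H2O2, with 4.52, 5.39 and 5.43 under both. Every strain stepped down in that order of conditions. The fall at 40 °C was not called (-0.56 ± 0.28, adjusted p = 0.125), while those after H2O2 (-1.93 ± 0.28, adjusted p = 0.00067) and after both (-2.85 ± 0.28, adjusted p = 3.85e-05) were. The step from 40 °C to both, -2.28 ± 0.28 (adjusted p = 0.000308), was exceeded in size by 0.206% of all tested probe sets. Cells given both stresses were lower than cells given H2O2 alone (-0.91 ± 0.28, adjusted p = 0.0313), with single differences of -1.86 for WT, -0.31 for slm9D and -0.56 for hip1D. This last call was lost without the WT array after H2O2 (-0.73, adjusted p = 0.11) and when slm9D (-1.21, adjusted p = 0.0797) or hip1D (-1.09, adjusted p = 0.0982) was left out.

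The separase gene cut1 and the securin gene cut2 did not share a pattern. cut1 read 9.66 for WT, 10.11 for slm9D and 10.18 for hip1D without stress, 9.25, 10.41 and 10.37 at 40 °C, 8.70, 10.02 and 10.01 after H2O2, with 9.01, 10.11 and 10.20 under both. WT lay below both mutants in each condition, and no stress response of cut1 was called (0.03 ± 0.15 with adjusted p = 0.895 for heat, -0.41 ± 0.15 with adjusted p = 0.0548 for H2O2, -0.21 ± 0.15 with adjusted p = 0.262 for the pair of stresses). cut2 read 7.93, 7.83 and 7.88 without stress, 7.05, 7.26 and 7.36 at 40 °C, 7.84, 7.99 and 7.99 after H2O2, with 6.92, 7.75 and 7.90 under both. Heat lowered it in all 3 strains (-0.66 ± 0.18, adjusted p = 0.0147), H2O2 left it within 0.16 of the unstressed reading (0.06 ± 0.18, adjusted p = 0.813), and after both WT was low while the mutants were near their unstressed level (-0.36 ± 0.18, adjusted p = 0.12). H2O2 alone left more cut2 than heat alone (0.72 ± 0.18, adjusted p = 0.00809), a call that was lost when slm9D (0.71, adjusted p = 0.0845) or hip1D (0.76, adjusted p = 0.0525) was left out. Within an array, the log2 difference of cut1 over cut2 shifted relative to unstressed cells by 0.48 in WT, 0.88 in slm9D and 0.72 in hip1D at 40 °C and by -0.87, -0.25 and -0.28 after H2O2, so the pair did not change equally.

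Set side by side, none of the 10 was called higher than in unstressed cells under any stress by limma, and none at an unadjusted p under 0.05 either. At 40 °C 5 of 10 fell (cdc25, mik1, plo1, slp1 and cut2), where 25.7% of all probe sets fell and 22.7% rose. After H2O2 6 of 10 fell (cdc13, cdc25, wee1, mik1, slp1 and ark1), against 29.2% of all probe sets, with 15.8% higher. After both stresses 7 of 10 fell (all but cdc13, cut1 and cut2), against 33.5% of all, with 23.8% higher. The median difference of the 10 was -0.55, -0.72 and -1.02 in that order, and that of all probe sets 0.01, -0.07 and -0.05. These 3 comparisons share the unstressed arrays.

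The heat count depends on which strains are in the fit. It was 9 calls without WT, 7 of them lower and 2, cdc13 (0.31, adjusted p = 0.000148) and cut1 (0.25, adjusted p = 0.000676), higher. Of all 2917 probe sets 1128 were then called higher and 1051 lower, against 662 and 750 in the main fit. Without slm9D, and also without hip1D, 1 call was left, which was slp1 (with adjusted p = 0.0659 and 0.107 for cdc25). Calls over all probe sets, 1412 in the main fit, were then 623 and 637. The differences of cdc25 (-0.64), plo1 (-0.71) and cut2 (-0.71) without slm9D were no smaller than with it. The SE of cdc25 was 0.20 without slm9D, 0.13 in the main fit and 0.07 without WT. The reason for the lost calls was not tested. After quantile normalization on the S. pombe probe sets alone 8 of 10 fell at 40 °C, wee1 (-0.59, adjusted p = 0.00942), fkh2 (-0.64, adjusted p = 0.026) and ark1 (-0.76, adjusted p = 0.0159) joining the others. The count after both stresses was 7 under each of these settings.

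**Figure D2:**
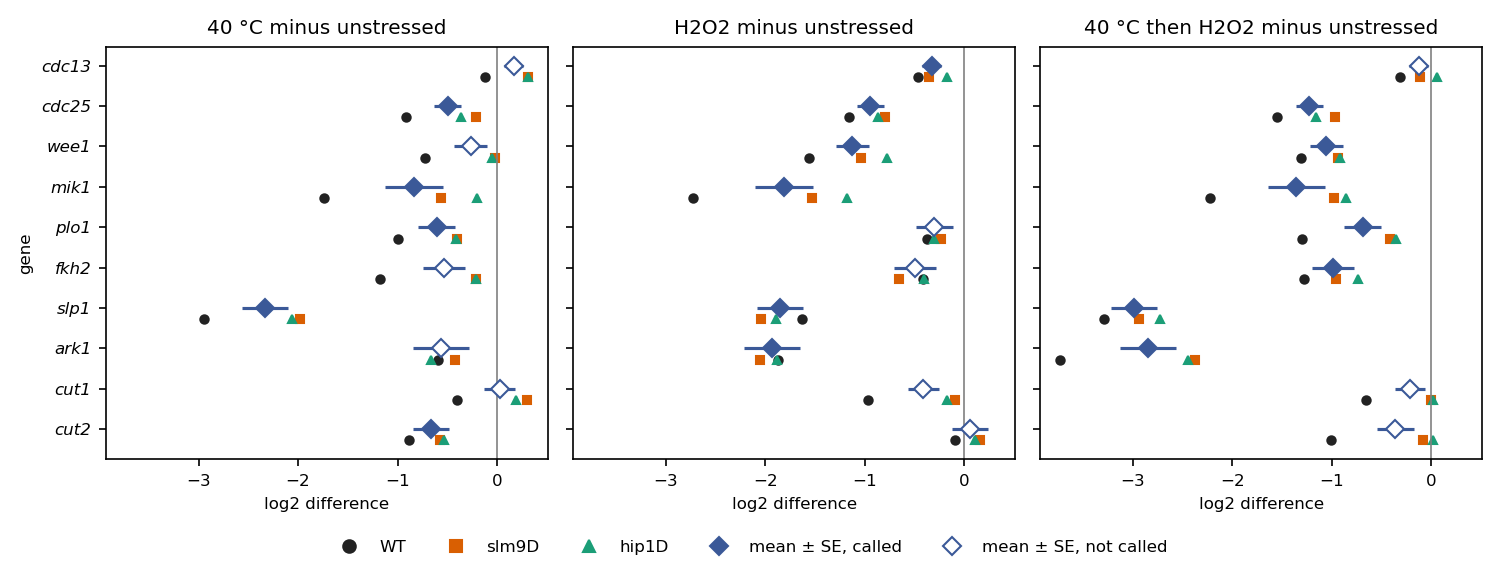
Log2 difference from unstressed cells (x axis) for each gene (y axis) at 40 °C, after H2O2 and after both. Diamonds are means over the 3 strains with the SE of the fit, filled where called, and the small symbols give the single difference of each strain. WT fell more than both mutants at 40 °C for cdc25, wee1, mik1, plo1, slp1, fkh2 and cut2, while for ark1 WT lay between the mutants.

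Direct comparison of the stresses split the 10 genes. H2O2 alone left lower levels than heat alone of cdc13 (-0.49 ± 0.10, adjusted p = 0.00216), cdc25, wee1 (-0.86 ± 0.16, adjusted p = 0.00188), mik1 (-0.98 ± 0.29, adjusted p = 0.0165), ark1 (-1.37 ± 0.28, adjusted p = 0.00263) and cut1 (-0.44 ± 0.15, adjusted p = 0.0346). These 6 of 10 stand against 34.6% of all probe sets that were lower after H2O2 than at 40 °C, and cut2, 1 of 10, was called higher, as were 23.1% of all. plo1, fkh2 and slp1 were not called, with differences of 0.31 ± 0.18, 0.04 ± 0.21 and 0.48 ± 0.23. For fkh2 the strains differed in sign, with 0.76 for WT, -0.44 for slm9D and -0.19 for hip1D. Of 17 other genes of M-phase transcription, listed further below, 8 were called lower and 4 higher in this comparison. After quantile normalization on the S. pombe probe sets alone plo1 (0.73, adjusted p = 0.00344) and slp1 (0.96, adjusted p = 0.00285) were called higher after H2O2, while cdc25 (-0.04), wee1 (-0.21), mik1 (-0.17) and cut1 (-0.33) lost their call. The mik1 and cut1 calls were lost without the WT array after H2O2 (-0.81, adjusted p = 0.0591, and -0.31, adjusted p = 0.13). The count of calls was 1 without slm9D and 3 without hip1D. Over all probe sets the calls went from 1681 to 948 and 1071.

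Relative to heat alone, 5 of 10 were lower in cells given H2O2 after heat, where 27.5% of all probe sets were lower. These were cdc13 (-0.29 ± 0.10, adjusted p = 0.0356), cdc25 (-0.73 ± 0.13, adjusted p = 0.00231), wee1, slp1 (-0.65 ± 0.23, adjusted p = 0.0437) and ark1. Cells given both stresses had 1 h more after the heat than cells given heat alone, and no heated array without H2O2 covers that hour. The H2O2 and the added hour therefore cannot be told apart here. The slp1 call was lost after quantile normalization on the S. pombe probe sets alone (-0.43, adjusted p = 0.106), and cut2 was then called higher (0.77, adjusted p = 0.0034). Without slm9D, and likewise without hip1D, only 1 of these calls was left, and without WT there were 9, of which cut2 was the one higher (0.52, adjusted p = 3.62e-06). Over all probe sets 394, 527 and 2150 were called without slm9D, hip1D and WT in turn, against 1333 in the main fit. Against H2O2 alone, the primed cells differed in 2 of 10, slp1 (-1.13 ± 0.23, adjusted p = 0.00607) and ark1, both lower, where 17.8% of all were. These 2 became 0 without slm9D and 1 without hip1D, where slp1 was left. Calls over all probe sets went from 1044 to 205 and 331.

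The 3' to 5' controls moved with the stresses. For the ACT1 control the log2 signal at the 3' end exceeded that at the 5' end by 0.43 ± 0.04 in unstressed and 0.50 ± 0.05 in heated cells, by 0.65 ± 0.01 with H2O2 alone and by 0.91 ± 0.11 with both (SD, n = 3), and for the TFIID control by 0.84 ± 0.03, 0.56 ± 0.06, 0.67 ± 0.16 and 0.63 ± 0.06. For the control CC338.15 the values in the same order were 0.91 ± 0.11, 1.39 ± 0.18, 1.16 ± 0.10 and 1.33 ± 0.10, and for RIP1 1.08 ± 0.15, 1.16 ± 0.27, 0.98 ± 0.10 and 0.87 ± 0.13. The part of such RNA differences in the falls of the 10 genes was not tested.

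Other genes of the same machinery, from lists drawn up by function, were counted too. Among 17 genes of M-phase transcription, beside 25.7%, 29.2% and 33.5% of all probe sets that were lower in the 3 comparisons, 7 fell and 1 rose at 40 °C, 11 fell and 1 rose after H2O2, and 13 fell and 0 rose after both. The contractile ring gene cdc15 (-1.19 ± 0.23) was among those at 40 °C, the kinesin gene klp6 (-1.57 ± 0.18) and the ring anchor gene mid1 (-1.26 ± 0.11) among those after H2O2. Adjusted p-values of these named genes were 0.00284 for cdc15, 0.000231 for klp6 and 7.05e-05 for mid1.

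The core of the APC/C did not follow its activator slp1. Of 13 probe sets for APC/C subunits and regulators, mes1 among the latter, 5 rose and 0 fell at 40 °C. Among the 5 were apc10 (0.58 ± 0.11, adjusted p = 0.00275) and cut9 (0.77 ± 0.16, adjusted p = 0.00423). After H2O2 2 rose and 2 fell, and after both 2 rose and 2 fell. Of all probe sets 22.7% were called higher at 40 °C. ste9, whose product activates the APC/C in G1, fell after H2O2 (-1.08 ± 0.30, adjusted p = 0.0181). Of 5 condensin genes 2 rose at 40 °C, cut3 (1.32 ± 0.12, adjusted p = 3.17e-05) and cut14 (0.38 ± 0.10, adjusted p = 0.0102), and none fell. After H2O2 0 rose and 2 fell, where 29.2% of all probe sets fell, and after both 0 rose and 0 fell.

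Lists of partners of the other members were counted in the same way, against 25.7%, 29.2% and 33.5% of all probe sets lower and 22.7%, 15.8% and 23.8% higher at 40 °C, after H2O2 and under both. The chromosomal passenger genes, whose products bind Ark1, fell in 4 of 4 cases after H2O2, led by sgo2, a shugoshin gene (-0.96 ± 0.12, adjusted p = 0.000283), and pic1, the INCENP gene (-0.75 ± 0.13, adjusted p = 0.00178), and in 0 of 4 at 40 °C. After quantile normalization on the S. pombe probe sets alone these counts were 2 of 4 and 2 of 4. Of 6 genes for Cdc2, other cyclins, Suc1 and the CDK inhibitor Rum1, 3 fell at 40 °C, 4 after H2O2 and 3 after both, among them cig2 and rum1 after H2O2 (-1.16 ± 0.16, adjusted p = 0.000462), and none rose. Of 20 regulators of Wee1 and Cdc25, 3 fell and 5 rose at 40 °C, 9 fell and 2 rose after H2O2, and 7 fell and 6 rose after both. Those that fell after H2O2 include cdr1, whose product inhibits Wee1 (-1.46 ± 0.20, adjusted p = 0.000487), and nif1 (-1.66 ± 0.19, adjusted p = 0.000211). srk1, the gene of a kinase that inhibits Cdc25 under stress, rose by 1.90 ± 0.21 after H2O2 and by 2.86 ± 0.21 after both (adjusted p = 0.000171 and 8.83e-06). In the spindle checkpoint list of 6, 1 fell and 2 rose at 40 °C and 3 fell and 1 rose after H2O2, with bub1 at -1.03 ± 0.14 and mad2 at 0.44 ± 0.14 (adjusted p = 0.000448 and 0.0307). In the septation initiation network of 12, 2 fell and 4 rose at 40 °C, 4 fell and 1 rose after H2O2, the lower share near that of all probe sets, and 4 fell and 4 rose after both, with byr4 at -0.92 ± 0.11 and spg1, the GTPase gene that Byr4 restrains, at 1.14 ± 0.13 (adjusted p = 9.18e-05 and 8.61e-05). Genes of cohesin and its regulators fell in 3 of 8 cases after H2O2, with psm3 at -0.58 ± 0.11 (adjusted p = 0.00264), and rose in 3 of 8 at 40 °C.

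**Figure D3:**
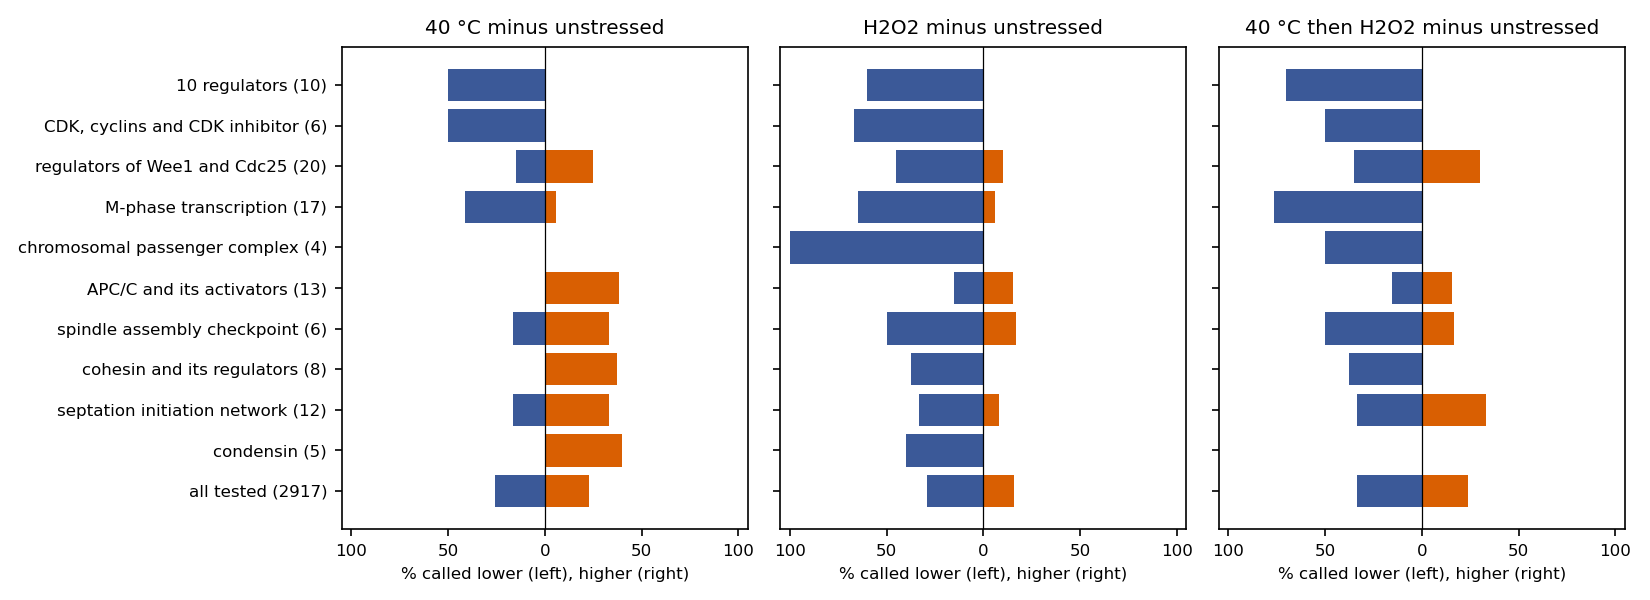
Share of the probe sets of each list (y axis, number of probe sets in brackets) called lower (bars to the left) and higher (bars to the right) than in unstressed cells, in percent. The 10 regulators have bars on the lower side only, for 5, 6 and 7 genes, and the APC/C list has only a higher bar at 40 °C.

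Mutants were then compared with WT, the question behind the series. cut1 was the only one of the 10 called over all conditions, 1.02 higher in the mutants (1.02 ± 0.12, adjusted p = 0.000115, 8 mutant against 4 WT arrays). Condition by condition, the excess was 0.49 ± 0.07 in unstressed cells (adjusted p = 3.09e-05), 1.14 ± 0.07 in heated cells (adjusted p = 2.53e-09), 1.31 ± 0.07 with H2O2 alone (adjusted p = 2.04e-10) and 1.15 ± 0.07 with the pair of stresses (adjusted p = 2.63e-09). Every slm9D and hip1D array read higher than the WT array of its condition, and after quantile normalization on the S. pombe probe sets alone the 4 differences lay between 0.51 and 1.21. Relative to cut2 on the same array, cut1 was higher in the mutants than in WT by a mean of 0.56 in unstressed and 0.88 in heated cells, by 1.16 with H2O2 alone and by 0.25 with both (n = 2 mutants). The RIP1 control also set WT apart in every condition, with a 3' minus 5' difference of 0.90 for WT against 1.17 and 1.15 for slm9D and hip1D in unstressed cells, 0.86 against 1.29 and 1.34 in heated cells, 0.89 against 0.97 and 1.09 with H2O2 alone, and 0.76 against 0.85 and 1.01 with both, and its part in the mutant differences was not tested. Among all probe sets 25.3% were called higher and 28.7% lower in the mutants over all conditions, beside 1 of 10 and 0 of 10 here, with 2 of 10 higher and 0 lower at an unadjusted p under 0.05. Quantile normalization on the S. pombe probe sets alone left 2 of 10 higher, cut1 and cdc13 (0.19), and 5 of 10 lower, wee1 (-0.83), mik1 (-0.69), ark1 (-0.67), slp1 (-0.43) and cdc25 (-0.27), where 641 and 966 of the 2917 probe sets were.

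Without stress the mutants had less of 6 of the 10 transcripts and more of 1, cut1, where 34.6% and 26.0% of all probe sets were called lower and higher. mik1 (-0.88 ± 0.17, adjusted p = 0.000329) and wee1 (-0.65 ± 0.11, adjusted p = 0.000154), the inhibitory kinase genes, were lower together with cdc25 (-0.47 ± 0.08, adjusted p = 0.000181). plo1 (-0.44 ± 0.08, adjusted p = 0.000321), ark1 (-0.44 ± 0.12, adjusted p = 0.0069) and slp1 (-0.34 ± 0.10, adjusted p = 0.00663) were the others. For these 6 genes both mutants read lower than WT, and the same 6 were called lower after either change of scaling, by 0.33 to 1.22 after quantile normalization on the S. pombe probe sets alone. cdc13, fkh2 and cut2 differed by -0.05 ± 0.08, -0.01 ± 0.10 and -0.08 ± 0.09. Each of these comparisons rests on 1 WT array, whose own spread is taken to be that of the mutants.

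At 40 °C 6 of 10 were higher in the mutants and 1 lower, where 29.3% and 34.1% of all probe sets were. Next to cut1 the higher ones were fkh2 (0.95 ± 0.10, adjusted p = 1e-06), slp1 (0.59 ± 0.10, adjusted p = 7.06e-05), mik1 (0.48 ± 0.17, adjusted p = 0.0222), cdc13 (0.38 ± 0.08, adjusted p = 0.000512) and cut2 (0.26 ± 0.09, adjusted p = 0.0236), and ark1 was lower (-0.38 ± 0.12, adjusted p = 0.0139). After quantile normalization on the S. pombe probe sets alone, fkh2 (0.68) and cdc13 (0.39) kept their call, slp1 (0.20) lost it, and mik1 (-0.31) and cut2 (-0.06) turned sign without a call. wee1, at 0.04 before, was then lower in the mutants (-0.50, adjusted p = 0.00589).

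After H2O2 alone 2 of 10 were higher in the mutants, cut1 and mik1 (0.49 ± 0.17, adjusted p = 0.016), and 3 lower, slp1 (-0.68 ± 0.10, adjusted p = 1.17e-05), ark1 (-0.53 ± 0.12, adjusted p = 0.00116) and plo1 (-0.34 ± 0.08, adjusted p = 0.00201). Of all probe sets 38.0% were called higher and 37.2% lower in that comparison, which rests on the WT array that stands apart. The mik1 difference turned to -0.63 (adjusted p = 0.0127) after quantile normalization on the S. pombe probe sets alone, and wee1, not called before, went from 0.01 to -0.91 (adjusted p = 9.89e-05), while slp1, ark1 and plo1 stayed lower.

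After both stresses 7 of 10 were higher in the mutants and 1 lower, where 29.5% and 29.6% of all were. cut2 (0.90 ± 0.09, adjusted p = 7.9e-07), ark1 (0.89 ± 0.12, adjusted p = 2.18e-05), plo1 (0.47 ± 0.08, adjusted p = 0.000211), fkh2 (0.41 ± 0.10, adjusted p = 0.00261), mik1 (0.42 ± 0.17, adjusted p = 0.0433) and cdc13 (0.24 ± 0.08, adjusted p = 0.0147) joined cut1, and wee1 was lower (-0.27 ± 0.11, adjusted p = 0.0499). With quantile normalization on the S. pombe probe sets alone 3 of 10 were higher, cut1, cut2 (0.60) and cdc13 (0.26), and 4 of 10 lower, wee1 (-1.15), slp1 (-0.66, adjusted p = 0.0001), mik1 (-0.60, adjusted p = 0.02) and cdc25 (-0.21, adjusted p = 0.045). Under that scaling plo1 (0.20), ark1 (-0.10) and fkh2 (-0.12) were not called. The wee1 call was lost when dim probe sets were left out (-0.27, adjusted p = 0.0561) and with equal medians outside S. pombe (-0.22, adjusted p = 0.108), and the mik1 call when dim probe sets were left out (0.42, adjusted p = 0.0584).

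**Figure D4:**
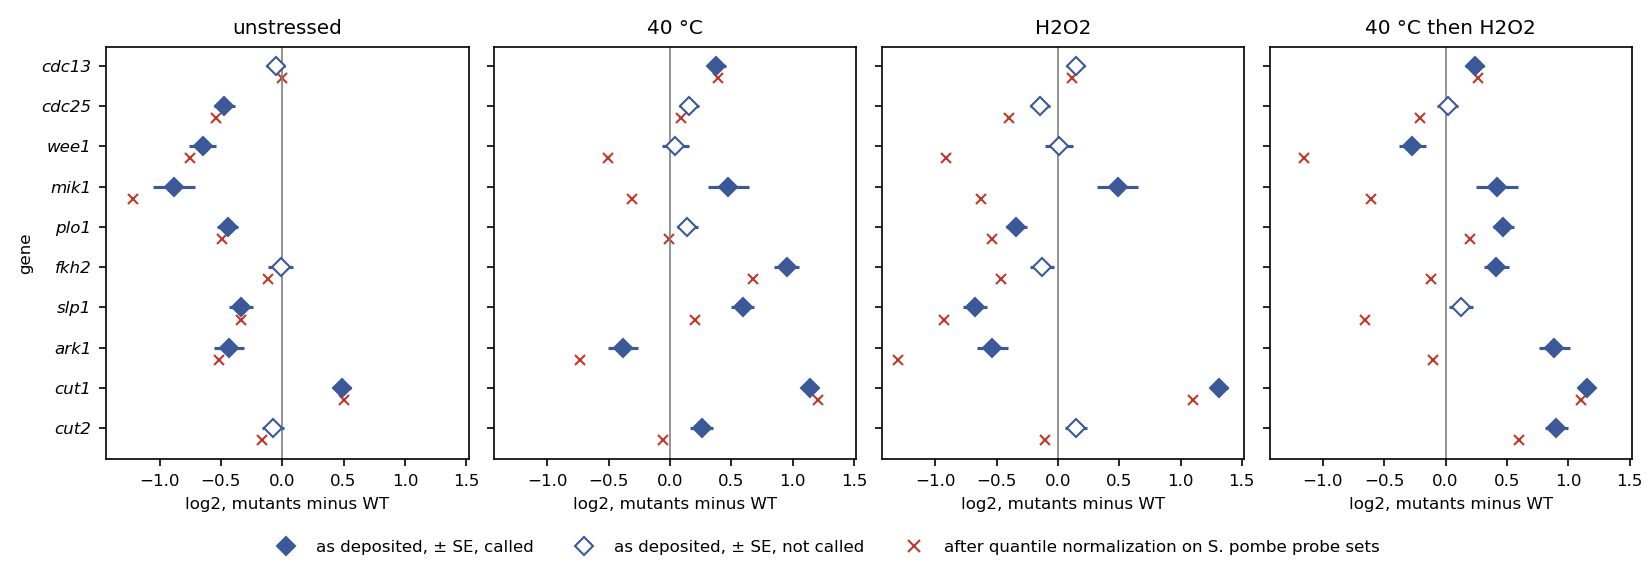
Log2 difference of the mutants from WT (x axis) for each gene (y axis) in the 4 conditions, as the mean of slm9D and hip1D minus the WT array. Diamonds with the SE of the fit use the values as deposited, filled where called, and crosses show the same difference after quantile normalization on the S. pombe probe sets alone. cut1 lies to the right of 0 throughout, by 0.49 to 1.31, while mik1 after H2O2 moves from 0.49 to -0.63 between the scalings.

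The test of unequal response asks whether a stress moved the mutants by another amount than WT. At 40 °C 9 of 10 differences were called, all with the mutants above WT, where 22.7% of all probe sets were called higher. The largest was that of mik1, which fell by 1.74 in WT and by 0.56 and 0.20 in slm9D and hip1D (difference 1.36 ± 0.23, adjusted p = 0.000111). fkh2 (0.96 ± 0.15, adjusted p = 4.12e-05) and slp1 (0.93 ± 0.14, adjusted p = 3.42e-05) followed, and ark1 was not called (0.05 ± 0.17, adjusted p = 0.841). Of the 9, 7 were called after quantile normalization on the S. pombe probe sets alone, wee1 (0.25) and cut2 (0.11) losing the call. Both the unstressed and the heated WT array enter every one of these differences.

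After H2O2 alone 4 of 10 responses differed, where 31.0% of all probe sets were called higher: mik1 (1.37 ± 0.23, adjusted p = 8.07e-05), cut1 (0.83 ± 0.10, adjusted p = 2.86e-06), wee1 (0.66 ± 0.16, adjusted p = 0.00321) and cdc25 (0.33 ± 0.12, adjusted p = 0.0353). WT fell more than both mutants in each of these. After quantile normalization on the S. pombe probe sets alone only cut1 of the 4 was still called (0.59), wee1 turned to -0.16, and slp1 (-0.60) and ark1 (-0.78) were called with the mutants falling more. After both stresses 9 of 10 differed, where 26.8% of all were called higher, with ark1 (1.32 ± 0.17, adjusted p = 5.9e-06), mik1 (1.30 ± 0.23, adjusted p = 0.000136), cut2 (0.98 ± 0.13, adjusted p = 5.92e-06) and plo1 (0.92 ± 0.12, adjusted p = 6.93e-06) leading and wee1 not called (0.38 ± 0.16, adjusted p = 0.0686). That count was 4 after quantile normalization on the S. pombe probe sets alone, namely cut2 (0.76), plo1 (0.69), cut1 (0.60) and cdc25 (0.33).

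Genes of the listed machinery showed the same unequal responses in places. The 17 genes of M-phase transcription had 9 calls with the mutants above WT in the response to 40 °C and 11 in the response to both, and 0 the other way, where 22.7% and 26.8% of all probe sets were called in that direction, with spo12 at 0.71 ± 0.14 at 40 °C and 2.05 ± 0.14 after both (adjusted p = 0.000375 and 9.99e-10). After quantile normalization on the S. pombe probe sets alone the counts were 8 and 6, with 1 call the other way each. In the response to H2O2 alone the M-phase list had 5 calls above WT and 5 below. The 20 regulators of Wee1 and Cdc25 had 12 above and 0 below there, where 905 and 475 of the 2917 probe sets were. That response rests on the WT array that stands apart. Most other lists held calls both ways in the response to 40 °C. Of the 2917 probe sets 662 were called above WT there and 524 below. Above and below were 4 and 4 of 13 APC/C genes, and 5 and 5 of 20 regulators of Wee1 and Cdc25. Cohesin had 3 and 1 of 8, the CDK list 2 and 1 of 6, and condensin 2 and 1 of 5. The septation initiation network had 2 and 1 of 12. Only above were the passenger genes, with 2 and 0 of 4. Only below were the spindle checkpoint genes, with 0 and 1 of 6. Over all conditions 25.3% of all probe sets were higher and 28.7% lower in the mutants. Higher and lower were 6 and 3 of 13 for the APC/C, and 6 and 3 of 20 for the regulators of Wee1 and Cdc25. M-phase transcription had 5 and 4 of 17, cohesin 4 and 1 of 8, and the CDK list 1 and 2 of 6. The spindle checkpoint had 2 and 1 of 6, and the septation initiation network 2 and 1 of 12. Condensin, with 3 and 0 of 5, and the passenger genes, with 1 and 0 of 4, had higher calls only. Lower in the mutants were the checkpoint kinase gene mph1 (-0.71 ± 0.07, adjusted p = 4.95e-05), apc10 (-0.54 ± 0.09, adjusted p = 0.000751) and the cyclin gene cig1 (-0.52 ± 0.15, adjusted p = 0.0175). Among the higher ones were the condensin gene cut3 (1.64 ± 0.09), the passenger gene bir1 (1.29 ± 0.10), the cohesin loader gene mis4 (0.83 ± 0.10), the APC/C gene cut4 (0.97 ± 0.13) and the spindle pole gene cut12 (2.13 ± 0.18), whose product promotes activation of Plo1. Their adjusted p-values were 1.55e-06, 1.53e-05, 0.000124, 0.000361 and 2.65e-05, and all 5 were higher under both changes of scaling.

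slm9D and hip1D did not differ in any of the 10 by limma, with 0 at an unadjusted p under 0.05 and differences from -0.08 to 0.14, against 0.103% of all probe sets called. The intervals were wide relative to that, for mik1 from -0.47 to 0.75 and for cdc13 from -0.18 to 0.23 (95%).

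Likeness of pattern was measured as Pearson's r over the 12 arrays, which share strains and conditions, and is given as a description. Within the 10, cdc25 followed ark1 (r = 0.94), wee1 (r = 0.93) and mik1 (r = 0.85), and wee1 followed mik1 (r = 0.89) and ark1 (r = 0.87). slp1 followed plo1 (r = 0.87), cdc25 (r = 0.85) and fkh2 (r = 0.85). For cut2, r was -0.19 with wee1 and -0.25 with cdc13 but 0.73 with plo1 and 0.52 with fkh2. Among the 2906 probe sets with a mean above background, those most like slp1 were fib1 (0.99), uds1 (0.98) and rpl3402 (0.98), though fib1 and rpl3402 spanned only 0.70 and 0.83 log2 units. Those most like ark1 were hut1 (0.99), rpb6 (0.99) and cdc18 (0.99), the last a replication licensing gene. Those most like cut1 were tsc2 (0.98), mam3 (0.97) and bhd1 (0.97). For mik1 they were nif1 (0.96), ppr7 (0.95) and bgs1 (0.95), for wee1 rga4 (0.98), cuf1 (0.97) and moc3 (0.97), and for cdc25 gyp2 (0.97), rhp18 (0.97) and mcm3 (0.96). For plo1 they were sed5, hht1 and rid1 (0.95 each), for cdc13 prz1 (0.94), pex6 (0.94) and cdc5 (0.94), and for cut2 ero12 (0.93), prh1 (0.91) and caf1 (0.89). For fkh2 they were gua1 (0.99), erg6 (0.93) and a probe set that the platform names pho1 and whose gene ID belongs to nc-pho1 (0.92).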

How the data were processed

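The deposited intensity values, 1 per probe set and array, were summarised by the authors with RMA; the submitters' processing notes name Expression Console 1.1 (Affymetrix) and no settings. They run on a linear scale and were turned into log2 of the deposited intensity here. Gene names came from the platform annotation, matched to the RefSeq gene table (2914 probe sets by gene ID, 3 by symbol); 20 shared probe sets were left out, and 2601 for genes outside S. pombe gave the background. Promoter motifs, which had been planned, were not analysed here, and no coordinates are printed.

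Tests used limma 3.58.1 in R 4.3.3 (eBayes with trend). Condition effects and mutants against WT overall came from strain plus condition (6 residual degrees of freedom), mutants against WT in a condition from 8 means (4), and response differences from 8 means plus a slm9D-minus-hip1D term (3). The fits were tested on simulated data. H2O2 against heat was added to order the conditions. The members, the lists and the tests were chosen with earlier results of these data known. Named genes are the members, up to 4 per list with the smallest p, and the 3 closest patterns per member. 1 list gene had no probe set. Results that need an item withheld for evaluation are not reported here. The number of arrays limits the precision.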

Additional observations from a re-analysis of the deposited data

Results flagged for a closer look

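Responses that differed between the mutants and WT in limma's test of the difference are gathered here, as the response of the mutants minus that of WT on the log2 scale. At 40 °C these were mik1 (1.36), fkh2 (0.96), slp1 (0.93), wee1 (0.69), cut1 (0.65), cdc25 (0.63), plo1 (0.59), cdc13 (0.43) and cut2 (0.33). After H2O2 alone they were mik1 (1.37), cut1 (0.83), wee1 (0.66) and cdc25 (0.33). After both stresses they were ark1 (1.32), mik1 (1.30), cut2 (0.98), plo1 (0.92), cut1 (0.66), cdc25 (0.49), slp1 (0.46), fkh2 (0.43) and cdc13 (0.29). All 3 sets share the unstressed WT array. The call was lost by quantile normalization on the S. pombe probe sets alone for wee1 (0.25) and cut2 (0.11) at 40 °C, for mik1 (0.59), cdc25 (0.14) and wee1 (-0.16) after H2O2, and for mik1 (0.61), ark1 (0.41), cdc13 (0.27), slp1 (-0.32) and fkh2 (-0.0052) after both.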

How the results depend on the processing

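With 1 array per strain and condition, a call rests on few arrays, and 1 WT array per condition carries every comparison with the mutants. The condition tests were paired by strain through the strain term, and the setting without it is the unpaired one. Beyond that pairing by strain, no paired analysis was possible because the labels number no replicates. The cause of the changes below was not tested.

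Counts of the 10 genes called moved by over 1.5 times in these cases. After quantile normalization on the S. pombe probe sets alone the count went from 5 to 8 for 40 °C against unstressed, from 2 to 6 for both stresses against H2O2, from 1 to 2 for heat by H2O2, from 1 to 7 for mutants against WT over all conditions (2 higher and 5 lower), from 5 to 8 for mutants against WT after H2O2 (1 higher and 7 lower), and from 9 to 4 for the response to both. Equal medians of the probe sets outside S. pombe gave 2 for mutants against WT over all conditions. Without the strain term both stresses against 40 °C gave 3 and heat by H2O2 gave 0. Without the WT array after H2O2 the counts were 1 for both stresses against H2O2 and 2 for mutants against WT over all conditions, fkh2 joining cut1. Leaving out 1 strain gave 1 to 9 for 40 °C against unstressed, 0 to 7 for both against H2O2, 1 to 9 for both against 40 °C, 0 to 4 for heat by H2O2 and 1 to 8 for H2O2 against 40 °C. The calls over all probe sets moved as well. For 40 °C against unstressed they went from 1412 to 623 without slm9D, 637 without hip1D and 2179 without WT. Leaving out 1 condition gave 1 to 3 for mutants against WT over all conditions.

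Signs turned as follows. Without WT, fkh2 in H2O2 against 40 °C turned from 0.04 to -0.32, while without slm9D it kept its sign (0.29). Quantile normalization on the S. pombe probe sets alone turned mik1 over all conditions (-0.69), at 40 °C wee1 (-0.50), mik1 (-0.31) and cut2 (-0.059), after H2O2 wee1 (-0.91) and mik1 (-0.63), and after both cdc25 (-0.21), mik1 (-0.60), slp1 (-0.66), fkh2 (-0.12) and ark1 (-0.10), all mutants minus WT. It also turned the response differences of wee1 to H2O2 (-0.16) and of slp1 (-0.32) and fkh2 (-0.0052) to both. Without a call on either side it turned fkh2 over all conditions (-0.0068), plo1 at 40 °C (-0.01) and cut2 after H2O2 (-0.10) in mutants minus WT, the response differences of ark1 to 40 °C (-0.22), plo1 to H2O2 (-0.042) and wee1 to both (-0.40), wee1 in both against H2O2 (-0.28), plo1 in both against 40 °C (0.25), cdc13 in heat by H2O2 (-0.052), and slp1 (0.027) and fkh2 (0.021) in slm9D against hip1D. Over all probe sets it moved higher and lower calls from 460 and 852 to 646 and 670 for H2O2 against unstressed, from 530 and 803 to 688 and 671 for both against 40 °C, from 673 and 1008 to 810 and 737 for H2O2 against 40 °C, and from 905 and 475 to 518 and 560 and from 781 and 561 to 549 and 594 for the responses to H2O2 and to both.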
